A study of Mus musculus with 2 samples.

Results

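The genes described here are 10 markers of cortical interneurons, the inhibitory neurons that release GABA within the cortex: the peptide genes Sst, Vip, Npy, Cck, Crh, Tac1 and Penk, the calcium-binding protein genes Pvalb and Calb2, and Reln. They were chosen by name from the 21938 protein-coding genes of GENCODE M21 on the chromosomes measured, and all 10 were found there. DNase-seq marks accessible chromatin by the places where the enzyme DNase I cuts DNA in nuclei. It was applied to cortex of the right hemisphere from 2-month-old male mice of strain B6CASTF1/J, the first-generation cross of C57BL/6J with CAST/EiJ. There was 1 group with 2 libraries, replicate 1 from animal 5 and replicate 2 from animal 6, with no treatment and no contrast. Both libraries carry a single donor record in the labels, and only the animal numbers tell them apart. All positions are in mm10 (GRCm38), whose sequence is that of C57BL/6J, so the CAST/EiJ allele is not represented in any sequence shown.

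Cortical interneurons fall into classes that are told apart by the peptides and calcium-binding proteins they carry. Somatostatin (Sst), parvalbumin (Pvalb) and vasoactive intestinal peptide (Vip) mark the main classes, and neuropeptide Y, cholecystokinin, corticotropin-releasing hormone, substance P (from Tac1), enkephalin (from Penk), calretinin (Calb2) and the secreted glycoprotein reelin overlap with them in part. The peptides are cut from larger precursors, stored in dense-core vesicles and act on G protein-coupled receptors. Several of their genes are textbook targets of the transcription factor CREB, which binds a cAMP response element (CRE) near the start. Interneurons are a minority of cortical cells, and Cck and Penk are also made by some excitatory neurons.

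Replicate 1 had 91818 strict peaks and replicate 2 had 75245, the smaller of the peak sets deposited for each library, with a median width of 200 bp in both. The larger sets, called broad here, held 162420 and 131881 peaks, and the libraries had 394531 and 241645 footprints, short stretches protected from cutting inside accessible DNA. Height is the value deposited for each peak. The sources used here give neither its scale nor the depth of the libraries, so heights are read as ranks within a library. All 6 pan-neuronal marker genes had a strict peak within 1000 bp of a start in both libraries. Of the 6 markers of excitatory neurons 6 and 4 had one in replicates 1 and 2, of the 6 markers of inhibitory neurons 3 and 2, of the 4 astrocyte markers 3 and 3, of the 4 oligodendrocyte markers 2 and 2, and of the 4 endothelial markers 2 and 0. None of the 4 microglial and none of the 4 liver markers had one. The libraries are of bulk tissue, in which fewer cells with an accessible site and less accessibility in each cell cannot be told apart.

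A strict promoter peak, meaning a peak within 1000 bp of any transcript start, was found at 6 of the 10 genes in replicate 1 (Npy, Cck, Pvalb, Calb2, Crh and Penk) and at 4 in replicate 2 (Npy, Cck, Pvalb and Calb2). The mean was 5 ± 1.41 genes (SD, n = 2). Over all protein-coding genes the share with such a peak was 63.4% in replicate 1 and 59.3% in replicate 2, and 58.7% had one in both, against 4 of the 10 markers. The broad sets placed a peak at 9 of the 10 in replicate 1 and 8 in replicate 2, where the background was 68.2% and 65.0%. The markers therefore stood near or under the background by the strict sets and above it by the broad ones. Every strict promoter peak of a marker gene was low. All 6 in replicate 1 and all 4 in replicate 2 were under the median height of the protein-coding genes with a promoter peak, which was 3.02 and 2.17, and 4 and 3 of them were under the 10th percentile, 0.920 and 0.768. The median of the markers' height percentiles, the share of those genes that were lower, was 6.27 in replicate 1 and 6.76 in replicate 2. The share of bases near the starts that was listed with a false discovery rate under 0.05 had a median of 18.5% and 6.04% over the 10 genes, against 16.5% and 11.7% over all genes. The markers' median was thus above that of all genes in replicate 1 and below it in replicate 2. Of the 10 markers, 5 and 4 were above the median of all genes. Such a base was listed at 9 and 8 of the 10 genes, against 69.2% and 66.1% of all genes.

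**Figure D1:**
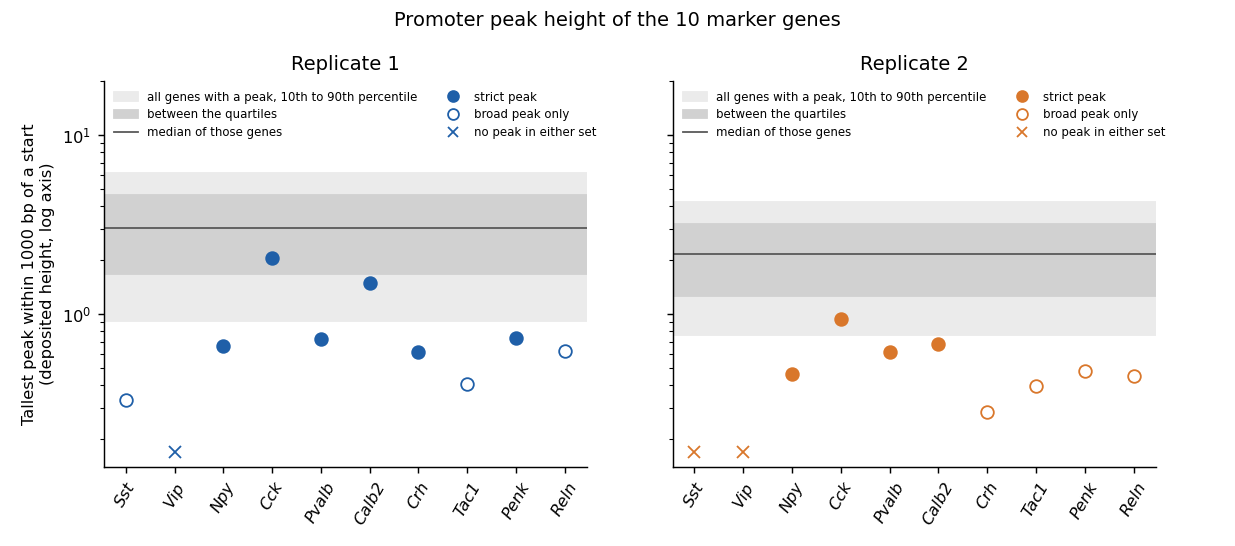
Tallest peak within 1000 bp of a transcript start for each of the 10 marker genes (horizontal axis), as deposited height on a log axis, in replicate 1 (left) and replicate 2 (right). Filled circles are strict peaks, open circles broad peaks where no strict peak was called, and crosses mark no peak in either set, while the grey bands and line show the spread and median of all protein-coding genes with a strict promoter peak. Every circle lies under the median line, and Cck is the highest marker in both libraries (2.05 and 0.937).

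Sst (chr16:23889573-23890958, minus strand), which encodes the peptide that marks dendrite-targeting interneurons, had no strict promoter peak in either library. The broad set of replicate 1 held 1 peak of height 0.332 over its start, with a lowest false discovery rate of 0.000441 per base, and 34 bases were under 0.001. In replicate 2 no base within 1000 bp of the start was listed. Vip (chr10:5639218-5647617, plus strand), the marker of interneurons that target other interneurons, had neither a peak in any set nor a listed base within 1000 bp of its starts in either library. It was the only one of the 10 with none at all.

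Npy (chr6:49822710-49829507, plus strand), the neuropeptide Y gene, had a strict peak over its start of height 0.563 in replicate 1 and one of 0.461 just upstream of the start in replicate 2, and these overlapped. A further peak of 0.663, centred 576 bp upstream, was called in replicate 1 alone. The height was low but many bases were listed, not all in 1 peak. In replicate 1, 1005 bases within 1000 bp of the start, 50.2% of that window, were listed. That put Npy at percentile 86.1 of all genes, while its height was at percentile 5.07. In replicate 2 the values were 23.9% of bases, percentile 71.2, and height percentile 2.40.

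Cck (chr9:121489824-121495694, minus strand), whose peptide marks a class of basket cells, had the tallest promoter peak of the 10. Its height was 2.05 in replicate 1 and 0.937 in replicate 2, at percentiles 32.7 and 15.0. The lowest false discovery rate near its starts was 6.36e-08 in replicate 1 and 0.000102 in replicate 2. Replicate 1 also had a strict peak of 1.28 centred 633 bp upstream, and replicate 2 had only a broad peak of 0.921 there.

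Crh (chr3:19693401-19695396, minus strand), the corticotropin-releasing hormone gene, had a strict promoter peak in replicate 1 alone. It was 460 bp wide with a height of 0.613, lay in the gene's intron, centred 766 bp downstream of the start, and held no footprint. In replicate 2 a broad peak of 0.284 lay within the same stretch. Tac1 (chr6:7554879-7565834, plus strand), the precursor gene of substance P and neurokinin A, had no strict promoter peak. Broad peaks covered its first exon at 0.407 in replicate 1 and 0.399 in replicate 2, and the lowest false discovery rates were 0.000780 and 0.00254.

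Penk (chr4:4133531-4138819, minus strand), the enkephalin precursor gene, differed most between the libraries in its share of listed bases. Replicate 1 had 4 strict promoter peaks of 0.319 to 0.738 and 1498 listed bases, 63.9% of the window around its starts and percentile 92.3 of all genes. Replicate 2 had no strict peak, 1 broad peak of 0.484 over the start and 111 listed bases, 4.74% of the window and percentile 38.8. The lowest false discovery rates were 3.74e-10 and 0.0231. The start lies inside the long noncoding RNA gene A830012C17Rik, so a peak there cannot be given to one of the genes by position.

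Pvalb (chr15:78191114-78206400, minus strand), which encodes the calcium buffer of fast-spiking basket and chandelier cells, had its shared promoter peak at an internal start, 78204237, and not at its 5′ end. The height was 0.726 in replicate 1 and 0.614 in replicate 2, at percentiles 6.15 and 5.86. Within 1000 bp of the 5′ end at 78206400 a peak of 0.657, centred 924 bp downstream in an intron, was called in replicate 1 and none in replicate 2. Calb2 (chr8:110137502-110168210, minus strand), the calretinin gene, had a single strict peak with the same ends in both libraries, chr8:110168161-110168380, over its start. Its height was 1.48 and 0.683, at percentiles 21.3 and 7.67, and its lowest false discovery rates, 9.00e-16 and 7.56e-09, were the lowest among the 10 genes in each library.

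Reln (chr5:21884454-22344702, minus strand), which encodes the secreted reelin that guides neuronal layering and marks layer 1 interneurons in the adult, had no strict peak within 1000 bp of any of its 10 starts. The broad sets held 6 peaks near its starts in each library, the tallest at 0.626 and 0.453. The lowest false discovery rates were 0.000405 and 0.00332, and 43 bases in replicate 1 and 0 in replicate 2 were under 0.001.

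**Figure D2:**
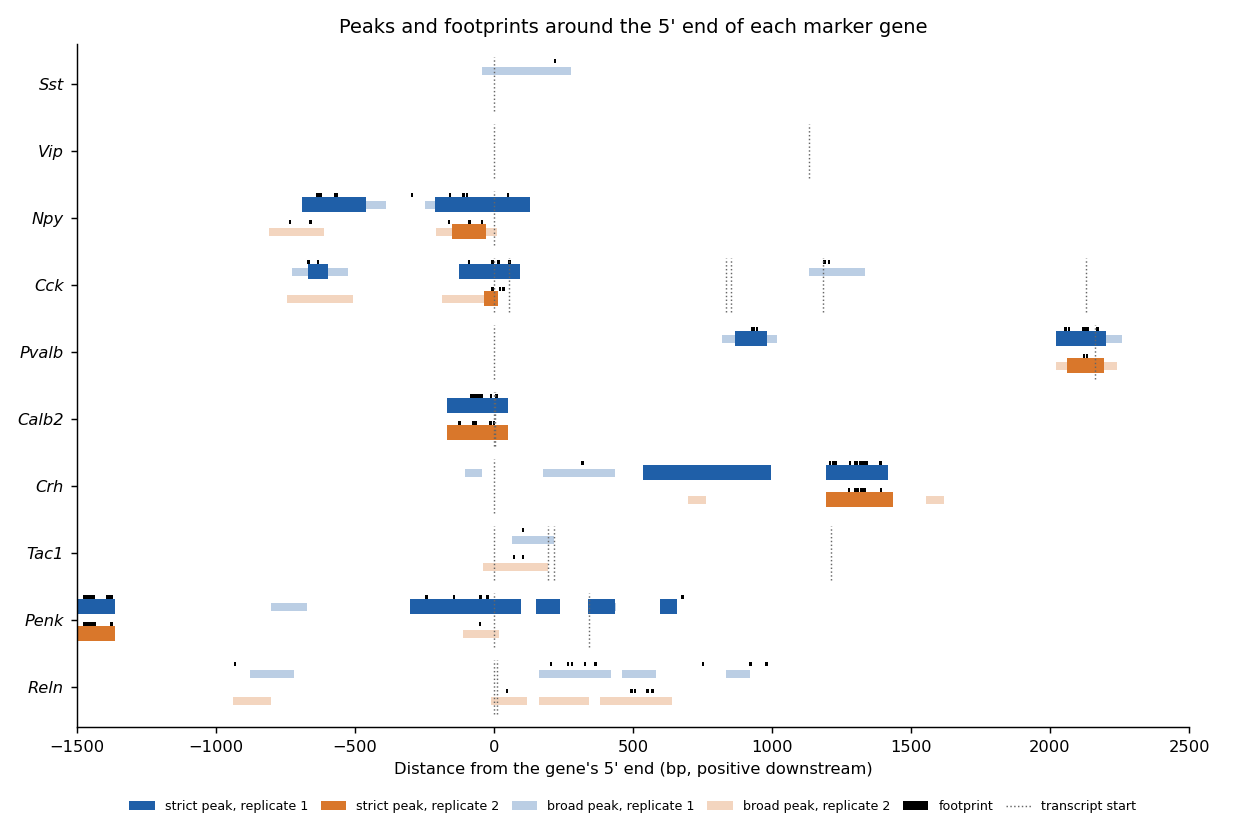
Strict peaks (dark bars), broad peaks (pale bars), footprints (black ticks above the bars) and transcript starts (dotted lines) around the 5′ end of each of the 10 marker genes, by distance from the 5′ end in bp, with replicate 1 in blue above replicate 2 in orange. Calb2 has the same peak in both libraries, Pvalb has its shared peak at the internal start, the 4 strict promoter peaks of Penk are present in replicate 1 alone, and Vip is empty.

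A footprint lay in the strict promoter peaks of 5 genes in replicate 1 and 4 in replicate 2, which is every gene with a peak except Crh in replicate 1. Of all genes with a promoter peak 99.2% and 98.2% had one. The RefSeq promoter table (GRCm38.p6) held 7 of the 10 genes (Sst, Vip, Npy, Cck, Pvalb, Tac1 and Reln), and Calb2, Crh and Penk were not matched. The following 3 stretches are the 250 bases before the RefSeq start of the matched genes that had a strict peak with footprints in both libraries, 5′ to 3′ on the gene's strand, with the bases of footprints that touch a strict peak of their own library, in either library, in capitals. They cover chr6:49822460-49822709 (plus strand) for Npy, chr9:121495695-121495944 (minus strand) for Cck and chr15:78204238-78204487 (minus strand) for the internal start of Pvalb.
Npy: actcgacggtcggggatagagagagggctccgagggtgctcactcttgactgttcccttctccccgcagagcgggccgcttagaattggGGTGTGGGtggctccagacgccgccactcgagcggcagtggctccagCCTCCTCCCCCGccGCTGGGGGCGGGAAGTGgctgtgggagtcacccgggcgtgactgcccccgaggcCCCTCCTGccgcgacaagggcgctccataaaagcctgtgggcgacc
Cck: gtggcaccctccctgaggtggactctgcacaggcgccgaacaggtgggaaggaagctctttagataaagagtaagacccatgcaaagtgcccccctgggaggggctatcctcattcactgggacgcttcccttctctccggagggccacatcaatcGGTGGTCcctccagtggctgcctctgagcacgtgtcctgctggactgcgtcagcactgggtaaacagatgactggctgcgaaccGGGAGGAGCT
Pvalb: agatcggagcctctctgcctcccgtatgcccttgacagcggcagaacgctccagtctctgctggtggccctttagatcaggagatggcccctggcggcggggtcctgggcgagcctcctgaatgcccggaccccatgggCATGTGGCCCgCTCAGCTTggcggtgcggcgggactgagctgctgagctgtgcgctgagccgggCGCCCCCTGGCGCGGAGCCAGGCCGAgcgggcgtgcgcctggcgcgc

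In Npy the capitals held a GGGCGG word, the core of the GC box bound by Sp factors, 95 to 90 bases before the start. It touched a footprint in each library, but these footprints did not overlap each other and each covered only part of the word. On either strand of the same 250 bases GGGCGG was present in 32.7% of all 32851 promoters, and in Npy, Reln and Tac1 among the 7 matched genes. In Cck the stretch next to the start was footprinted in both libraries, 10 to 2 bases before it in replicate 1 and 10 to 1 in replicate 2. In Pvalb a footprint of 26 bases in replicate 1, 47 to 22 before the internal start, contained the 9-base and 8-base footprints of replicate 2.

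The 250 bases before the start were also searched on both strands for CRE words, because several of the peptide genes are known CREB targets. The full palindrome TGACGTCA was present in Sst alone of the 7 matched genes and in 1.55% of all promoters. Its core TGACG was present in 4 of the 7 (Sst, Vip, Cck and Tac1) and in 17.8% of all promoters. The variant TGCGTCA, which contains that core on the other strand, was present in Cck and Tac1 and in 1.75% of all promoters. The words are given in capitals with up to 11 bases on each side on the gene's strand, since they are the best-known regulatory sequences of these genes. They begin 48 bases before the RefSeq start in Sst, 79 in Vip, 49 in Cck and 199 in Tac1.
Sst: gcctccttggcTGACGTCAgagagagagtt
Vip: gatcactactgTGACGtctttcgggga
Cck: tcctgctggacTGCGTCAgcactgggtaa
Tac1: ttccctaaaatTGCGTCAtttcgaacaca

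None of these 4 words touched a footprint in either library. The Cck word lay in the strict peak of replicate 1 and outside that of replicate 2, and those of Sst, Vip and Tac1 lay in no strict peak. The GENCODE start of Sst at 23890958 is upstream of the RefSeq start at 23890844, so by GENCODE the Sst word is in the first exon. The TATA word TATAAA was present in Vip (12.4% of all promoters) and the homeobox word TAATTA in Tac1 (4.84%). The TAATTA and GGGCGG words of Tac1 lie downstream of its GENCODE 5′ end at 7554879, which is upstream of the RefSeq start at 7555061. A further TGACG of Tac1, 43 to 39 bases before the RefSeq start, also lies downstream of that 5′ end and touched no footprint. No matched gene held the AP-1 word TGANTCA (6.75% of all promoters), the E-box CAGCTG (13.0%) or the CTCF word CCACNAGG (4.22%), and none held the MEF2 word (3.20%), the EGR word GCGTGGGCG (0.536%), or the RE1 words TTCAGCACC (0.301%) and GGACAGCGC (0.304%). That CTCF word was sought exactly. The 12-base CTCF core used below for distal peaks, with mismatches allowed, was not searched in promoters, so the searches cannot be compared.

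Base composition was set beside the peaks for the same promoters. Promoters were called CpG-rich where the 300 bases around the RefSeq start had at least 55% G or C and an observed to expected CpG ratio of at least 0.6. Of 9950 CpG-rich promoters 92.4% in replicate 1 and 87.5% in replicate 2 had a strict peak within 1000 bp, and 7.27% had none in either. Of the 22901 others the shares were 29.6%, 25.9% and 69.4%. The promoter of Reln was CpG-rich, with 80.7% G or C and a ratio of 1.01, and was among the 723 CpG-rich promoters with no strict peak in either library. The Npy promoter and the internal Pvalb promoter were CpG-rich and had peaks. The promoters of Sst, Vip, Tac1 and Cck and the 5′ promoter of Pvalb were not CpG-rich, and of these only Cck had a strict peak within 1000 bp in both libraries. Sst and Tac1 missed the rule by G or C content alone, with 50.3% and 54.0% and CpG ratios of 0.707 and 1.01.

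By the strict sets, most of these genes had a taller peak away from annotated starts than at their own, or none at their own. A distal peak is one over 1000 bp from every annotated transcript start, and it was looked for within the gene and up to 50000 bp beyond either end. In replicate 1 all 10 genes had a distal peak, and 18389 of all 21938 protein-coding genes had one. At 9 of the 10 the tallest distal peak exceeded the tallest promoter peak or there was no promoter peak. In replicate 2, where 18084 of all genes had a distal peak, the 9 markers with one all met this. Over all genes with a distal peak the share was 53.4% and 54.2%. The exception was Cck in replicate 1, with 2.03 against 2.05. Sst, Vip, Tac1 and Reln, and in replicate 2 also Crh and Penk, had no strict promoter peak, so no heights were compared there. Of the broad peaks at these genes, that of Tac1 in replicate 1 was taller than the strict distal peak, 0.407 against 0.338. Those of Sst, Reln, Crh and Penk were lower. The tallest distal peaks of Penk and Crh lay 1362 and 1196 bp from the nearest start. In all, 28 distal peaks overlapped between the libraries, at 9 of the 10 genes. The share of all genes with such an overlap was not counted.

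The tallest of them was at Penk, centred 1461 bp upstream of the 5′ end (chr4:4140181-4140380) in an intron of A830012C17Rik. Its height was 3.39 in replicate 1 and 2.52 in replicate 2, at percentiles 92.0 and 92.5 of all strict peaks. The promoter percentiles above were taken among genes with a promoter peak, so the scales cannot be compared. Among all strict peaks, the tallest promoter peak of the markers, at Cck, stood at percentiles 81.7 and 59.0. The distal Penk peak was called with the same ends in both libraries, unlike the promoter peaks of the same gene. Calb2 had one beyond its 3′ end, 37520 bp downstream of the start, of 2.94 and 1.57. Sst had a pair upstream, at 8102 bp (3.02 and 1.50) and 7472 bp (2.11 and 1.60), although its own start had no strict peak. Cck had 4 shared distal peaks. The tallest by rank, 16054 bp downstream of the start, stood at 1.95 and 1.67, and the second, 18214 bp downstream, at 2.03 and 1.40. Those upstream, at 11226 and 9837 bp, stood at 1.53 and 1.22 and at 1.15 and 1.08. The stretches common to both libraries are shown for the tallest distal peak of the 4 genes ranked highest, on the plus strand, with bases in footprints of both libraries in capitals. They are chr4:4140181-4140380 for Penk, chr8:110130601-110130780 for Calb2, chr16:23898961-23899120 for Sst and chr9:121479541-121479740 for Cck.
Penk: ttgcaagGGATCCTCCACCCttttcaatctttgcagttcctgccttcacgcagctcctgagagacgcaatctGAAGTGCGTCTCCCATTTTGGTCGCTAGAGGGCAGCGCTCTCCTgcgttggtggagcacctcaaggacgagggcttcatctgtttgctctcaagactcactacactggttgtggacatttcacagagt
Calb2: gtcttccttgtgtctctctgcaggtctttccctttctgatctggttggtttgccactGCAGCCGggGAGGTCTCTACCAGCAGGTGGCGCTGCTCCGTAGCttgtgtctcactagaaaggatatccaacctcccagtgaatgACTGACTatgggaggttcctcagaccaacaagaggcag
Sst: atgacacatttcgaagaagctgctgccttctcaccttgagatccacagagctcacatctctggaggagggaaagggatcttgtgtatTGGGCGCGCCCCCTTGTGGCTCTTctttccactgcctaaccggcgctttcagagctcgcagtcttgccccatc
Cck: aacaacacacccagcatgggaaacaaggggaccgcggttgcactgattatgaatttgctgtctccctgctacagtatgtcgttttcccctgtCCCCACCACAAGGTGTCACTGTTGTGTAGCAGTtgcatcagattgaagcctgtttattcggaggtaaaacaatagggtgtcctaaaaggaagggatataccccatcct

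Vip, with nothing at its start, had a shared distal peak of 1.80 and 1.74 in an intron of Myct1, 38918 bp upstream, and a second of 1.03 and 0.783 at 4658 bp upstream. No other strict peak was found in its window in either library. Pvalb had one of 2.10 and 1.46, 27830 bp downstream of its 5′ end and beyond its 3′ end. Crh had one of 2.03 and 1.18 within its own coding exon, 1306 bp downstream of the start, and a second of 1.09 and 0.538 at 3796 bp downstream, in an untranslated exon of Trim55. The distal peaks of Npy were low, with 0.688 and 0.415 for the tallest shared one by rank, 5234 bp upstream. Reln had 7 shared distal peaks, most in its own introns, and the tallest strict peak in its window stood at 0.845 and 0.822. Its shared peak 37428 bp downstream of the start stood at 0.807 and 0.822. Tac1 had a single strict peak in its window in replicate 1, of 0.338, and none in replicate 2.

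**Figure D3:**
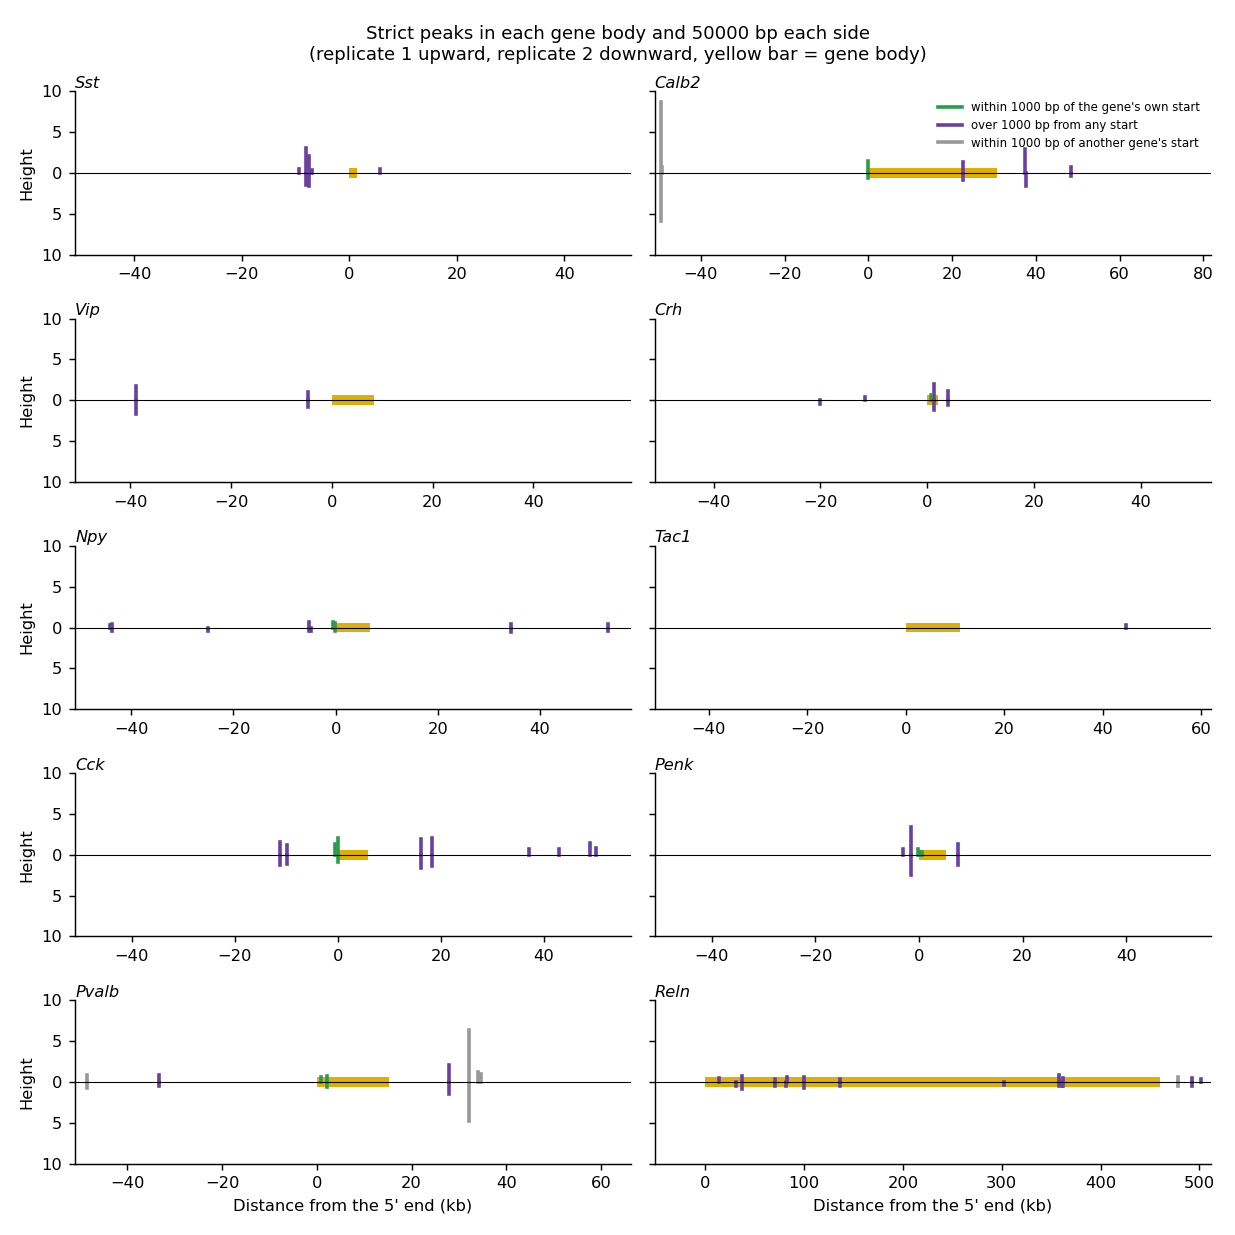
Strict peaks in the body (yellow bar) and 50000 bp on each side of each of the 10 marker genes, by distance of the peak centre from the 5′ end in kb (Reln on a longer axis), with the deposited height of replicate 1 drawn upward and that of replicate 2 downward. Green lines are peaks within 1000 bp of the gene's own start, purple lines distal peaks and grey lines peaks near the start of another gene. The tallest purple lines, at Penk (3.39 and 2.52), Calb2 and Sst, exceed the green ones, and Tac1 is almost empty.

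The footprints in the tall distal peaks were wide, and many of the capitals above held a version of one word. It matches the core of the consensus of CTCF, the zinc-finger protein known for insulator sites and chromatin loops. The 12-base CTCF core was therefore searched, after these sequences had been seen, on both strands in the central 150 bp of every distal peak shared by the libraries, allowing 1 mismatch. A match was present in 12 of the 28 shared distal peaks of the marker genes, against 25.0% of all 39476 shared distal peaks. Among those at or above the 75th percentile of height, averaged over the libraries, it was present in 7 of 9, against 46.1% of all 8362 such peaks. A match that touched footprints in both libraries was present in 7 of the 9, against 45.1% of the 8362. With up to 2 mismatches a match was present in all 9, against 63.6%, and touched footprints in both libraries in all 9, against 57.8%. Below that height a match was present in 5 of 19, against 19.3%. A footprint of at least 20 bp in both libraries was present in 8 of the 9 tall peaks, against 72.0% of all tall shared distal peaks, and in 11 of the 28, against 28.6%. The counts are small, and the 9 peaks include 2 each from Sst and Cck. They also include the peaks printed above for Penk, Calb2, Sst and Cck, which had been seen before the core was chosen. Those printed for Penk and Cck have 2 mismatches and count only under that setting. The counts are therefore not independent of the choice of core, and they were not repeated without these peaks. A match is a description of letters, and whether CTCF is bound was not measured.

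The closest 12 bases to the CTCF core in each of the 9 tall distal peaks are given on the strand that matches, to show the letters behind these counts. Each was picked as the closest to the same core, so their likeness to each other follows from the search. Those of Cck (first) and Penk have 2 mismatches, those of Sst (first) and Pvalb have 1, and the other 5 have none.
Sst (first): CCACAAGGGGGC
Sst (second): CCAGCAGAGGGC
Vip: CCACTAGATGGC
Cck (first): CCACAAGGTGTC
Cck (second): CCAGTAGAGGGC
Pvalb: TCAGCAGGGGGC
Calb2: CCAGCAGGTGGC
Crh: CCACCAGGGGGC
Penk: TCGCTAGAGGGC

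The widest footprint at these sites was 50 bp in replicate 1 and 48 bp in replicate 2 in the Vip peak, 46 and 45 bp in the Penk peak, 41 and 33 bp in the first Cck peak, and 38 and 24 bp in the first Sst peak. In the Crh peak, which lies in its coding exon, it was 31 and 22 bp. The tallest shared distal peaks of Npy and Reln had no match within 2 mismatches, and their widest footprints were 11 and 0 bp, and 7 and 8 bp. The lower shared distal peaks of Npy had none either. At Reln the peak 358193 bp downstream of the start had a match with no mismatch, and widest footprints of 42 and 17 bp. That at 99491 bp had a match with 2 mismatches, and widest footprints of 22 and 10 bp. Both matches touched footprints in both libraries.

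**Figure D4:**
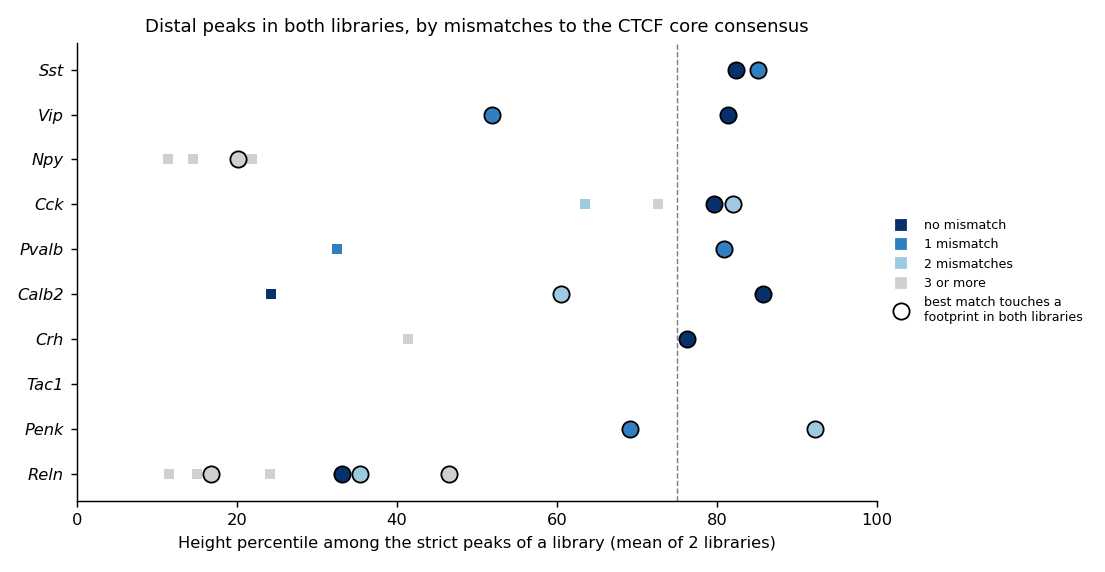
The 28 distal peaks called in both libraries around the marker genes (1 row per gene), by their height percentile among the strict peaks of a library, averaged over the 2 libraries. Colour gives the number of mismatches of the best match to the CTCF core in the central 150 bp, and outlined circles mark matches that touch a footprint in both libraries. Right of the dashed line at 75, all 9 peaks are outlined circles with at most 2 mismatches (57.8% of all tall shared distal peaks meet this), and Tac1 has no shared distal peak.

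The windows held 62 strict peaks in replicate 1 and 43 in replicate 2, of which 42 and 35 were distal. The median number per gene was 6.5 and 4, against 8 and 6 over all protein-coding genes, and the median density was 4.76 and 2.54 peaks per 100 kb, against 5.56 and 4.56. In replicate 1, 6 of the 10 were under the median density of all genes, and in replicate 2, 8 were. Cck had the highest density in replicate 1, 9.45 per 100 kb at percentile 77.6, and Npy in replicate 2, 6.55 per 100 kb at percentile 71.3. Tac1 had the lowest in both, 0.901 and 0, followed by Vip with 1.85 in both. Reln, the longest of the genes, had 1.96 and 2.14. Without peaks near the start of another gene the median numbers were 4 and 3, as over all genes, and the densities 3.26 and 2.29 per 100 kb against 3.17 and 2.60. With a flank of 20000 bp the order reversed, to 7.97 and 4.80 peaks per 100 kb against 5.62 and 4.56 over all genes. Of the peaks in the markers' windows 58.1% in replicate 1 and 83.7% in replicate 2 had an overlapping strict peak in the other library. Over all strict peaks the shares were 66.2% and 80.8%. The same overlap, 36 peaks in each library, is divided here by 62 and by 43, so the shares are not separate measurements of agreement.

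Crh and Penk were among the 1037 genes with a strict promoter peak in replicate 1 alone, 7.45% of the genes with one there. The median height of these genes in replicate 1 was 0.745, with 0.613 at Crh and 0.738 at Penk, against 3.25 at genes with a peak in both. With 1 library per animal, animal and library preparation cannot be told apart.

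Genes that work with the markers were counted in the same way, from lists drawn up for their known relation to them. Over all protein-coding genes 63.4% in replicate 1 and 59.3% in replicate 2 had a strict promoter peak. All 11 genes of peptide processing and dense-core vesicles had a strict promoter peak in replicate 1 and 10 in replicate 2. The tallest by rank averaged over the libraries were at Scg3, a granin of secretory granules (5.14 and 3.03), Pam, which amidates peptides (3.24 and 2.25), and Cpe, the carboxypeptidase that trims them (2.64 and 1.97), and Cadps2, a vesicle priming factor, had a peak in replicate 1 alone. Of 22 genes for receptors of the markers' products, counting the reelin adaptor Dab1, 17 and 13 had a promoter peak. The tallest by rank were at Vipr1, a receptor for the Vip peptide (2.37 and 1.64), Dab1 (2.26 and 1.51), and Lrp8, a reelin receptor (2.38 and 1.31), while Cckar and Crhr2, receptors for cholecystokinin and for the corticotropin-releasing hormone family, had none in either library. Of 17 other interneuron and neuropeptide genes in the annotation 11 and 9 had one. Vgf and Scg2, precursors of secreted granule peptides, stood at 4.50 and 2.87 and at 3.17 and 2.28, Cnr1, the cannabinoid receptor of Cck basket cells, at 1.60 and 0.991, and Cort, the cortistatin gene, and Crhbp, which binds corticotropin-releasing hormone, had none.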

How the data were processed

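DNase-seq was measured in 2 libraries of 1 group. Each library came with a pair of peak sets, false discovery rates per base and footprints, which per the deposited description files were derived from that library's own mm10 alignments and not from pooled samples. The sources used here name no aligner, caller, version or threshold. Peak height is a signal as deposited by the authors, with no stated scale. The false discovery rate is a q-value in the files the authors deposited, given where it is under 0.05. The smaller peak set of a library is called strict here and the larger one broad. All strict peaks held a base under 0.001 and all broad peaks one under 0.05. The footprints carry a constant p-value of 0.01 in the authors' files, and only their positions were used. All 21 chromosomes were within GRCm38.p6 lengths.

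Peaks were placed on GENCODE M21 with bedtools 2.31.1, Python 3.11.15, numpy 2.4.6 and pandas 2.3.3. An overlap was at least 1 bp. Promoter peaks lay within 1000 bp of any transcript start of a gene, and windows reached 50000 bp beyond the gene body. Words were searched on both strands, and the interval, rank and word functions were tested on simulated data. With 1 group of 2 libraries no test was made, and values are per library or a mean with its SD. All 10 genes are described, with the tallest peaks by rank and, from each list of related genes, the 3 tallest by mean rank among those with a peak in both libraries and up to 2 with none. Which sequences to print within that choice, and the CTCF core search, were settled after values were seen. The genes and lists were chosen with earlier results of these data known. Reads were not analysed here, depth is unknown, and no interval was computed. Alternatives covered the peak set, promoter window, flank, overlap rule, footprint rule and each library left out.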

Additional observations from a re-analysis of the deposited data

How the results depend on the processing

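The number of markers with a promoter peak, a mean of 5 over the libraries, was 8.5 with the broad sets. Over all genes the shares were 61.4% with the strict and 66.6% with the broad sets. The number of markers with a promoter footprint was 4.5 with the strict and 8 with the broad sets. Of all genes with a promoter peak, 98.7% and 96.5% held a footprint there. The median percentile of the promoter heights, 6.52 as the mean over the libraries, was 8.85 with the broad sets, 8.40 without peaks near another protein-coding gene, 6.91 with the start of the gene record only and 19.6 with a promoter window of 2500 bp (27.4 in replicate 1 and 11.9 in replicate 2), a window that takes in the Penk peak upstream and the Crh peak in its coding exon. The median number of peaks per window, 5.25, was 7.75 with the broad sets, 8.5 with a flank of 100000 bp and 1 in the gene body alone, against 7 over all genes and 11, 12 and 1 under these settings. The median density, 3.65 per 100 kb, was 6.47 with the broad sets, 6.38 with a flank of 20000 bp and 5.44 in the gene body alone, where all genes stood at 8.16, 5.09 and 4.51. In the gene body alone the libraries went opposite ways, 9.80 against 5.10 in replicate 1 and 1.09 against 3.91 in replicate 2. The 12 matches to the CTCF core were 7 with no mismatch, against 9.59% of all shared distal peaks, and 17 with up to 2, against 41.4%. With either library left out the values were those of the other library. They were 4 to 6 genes with a promoter peak, 4 to 5 with a footprint and 6.27 to 6.76 for the height percentile. For the windows they were 4 to 6.5 peaks and 2.54 to 4.76 peaks per 100 kb. The share of peaks found in both libraries cannot be computed from 1 library, so it has no such check. No paired analysis was possible because there was 1 group. Unknown depth limits the absences: a marker without a strict peak is one with none called at the depth of that library. With 2 libraries, no difference between them has a replicate check.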
